A study of Mus musculus with 10 samples.

Results

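The metabolite-sensing receptors Gpr84, Gpr35, Ffar2, Hcar2 and Sucnr1 were read from every probe that the array annotation gives to them, 8 of 45281 probes and 5 of 19057 named genes. Sucnr1 is the annotated spelling of the succinate receptor. Gpr84 had 2 probes, Gpr35 had 3, and Ffar2, Hcar2 and Sucnr1 had 1 each. The 5 receptors were selected on measured values of these same 10 arrays, and no single contrast is named as the basis of that choice. Each call given here therefore describes where a gene lies in a fit across all tested genes and is not independent support.

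These receptors are G protein-coupled and bind small molecules of intermediary or bacterial metabolism rather than peptides. Gpr84 responds to medium-chain fatty acids, Ffar2 to the short-chain fatty acids acetate and propionate, and Hcar2 to nicotinic acid and the ketone body beta-hydroxybutyrate. Gpr35 responds to kynurenic acid and other acids of tryptophan and lipid metabolism, and Sucnr1 to succinate. Most of them signal through inhibitory G proteins, and in myeloid cells they are known for effects on chemotaxis and on cytokine release.

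Total RNA of neutrophils, all taken from nude NCR females (athymic mice, which make few T cells), was measured on 10 Illumina bead arrays. Circulating neutrophils frozen directly after purification came from control mice without a tumor (2 arrays) and from mice carrying 4T1 tumors, which grow from a mouse mammary carcinoma line (2 arrays). Neutrophils of control mice were also cultured for 2 h in medium with 0.5% fetal bovine serum, with 1 array for each of 6 conditions. Cells were left untreated, given CCL2 or CCL5, or exposed to G-CSF alone or together with one of those chemokines. The chemokines CCL2 and CCL5 were of mouse and were used at 20 ng/ml, while G-CSF, the cytokine that drives neutrophil production, was recombinant human protein with no dose in the labels. G-CSF stands among the treatments of the cultured cells, and the labels leave unstated if it went into the medium or into the mice. The sources used here give neither ages nor the number of mice behind an array nor any pooling, so p-values measure the spread between arrays only.

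Between 13227 and 14846 probes were detected per array, and each receptor probe was read from 22 to 67 beads. All 12 neutrophil markers with a probe were detected on some array and 11 of them on all 10. Of 45 markers of other blood cells with a probe, 6 were not detected on any array (Ccr2, Flt3, Xcr1, Cd5, Ncr1 and Klrb1c). The summed normalized signal of those 45 genes was 25366 to 26230 on the control arrays, 16130 to 19926 on the tumor-bearing arrays, 23388 to 24568 in culture without G-CSF and 8279 to 8996 with it. A large part came from 3 erythroid genes, in the same order 17123 to 17597, 11827 to 15596, 13902 to 15249 and 3371 to 4042. The sum thus does not follow every cell type. T cell genes gave 1338 to 1431 on control arrays and 3557 to 3772 in culture without G-CSF. In RNA of whole cell preparations, fewer cells of a type and less RNA per cell cannot be told apart.

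RefSeq promoter windows (build GRCm38.p6) were matched for 4 of the 5 receptors, all but Hcar2. The 250 bases before a transcript start are shown for Gpr84 and Ffar2, which were both higher in tumor-bearing mice and with G-CSF, and for both starts of Gpr35, which was lower with G-CSF. The windows lie at chr15:103310439-103310688 (minus strand) for Gpr84, at chr7:30823776-30824025 (minus strand) for the start of Ffar2 that lies farthest upstream of its 4, and at chr1:92972869-92973118 and chr1:92978653-92978902 (plus strand) for Gpr35. Capitals mark letter matches, on either strand, to the NF-kB letters (GGG, any 5 bases, CC), TTCNNNGAA (STAT), TTGCNNAA (C/EBP), GAGGAAG (PU.1), TGANTCA (AP-1) or ACGTG (hypoxia response).
Gpr84: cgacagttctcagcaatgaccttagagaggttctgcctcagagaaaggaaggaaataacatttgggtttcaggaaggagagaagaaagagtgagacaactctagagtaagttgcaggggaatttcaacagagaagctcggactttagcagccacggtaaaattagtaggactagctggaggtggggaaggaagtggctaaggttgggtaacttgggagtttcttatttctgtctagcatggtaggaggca
Ffar2: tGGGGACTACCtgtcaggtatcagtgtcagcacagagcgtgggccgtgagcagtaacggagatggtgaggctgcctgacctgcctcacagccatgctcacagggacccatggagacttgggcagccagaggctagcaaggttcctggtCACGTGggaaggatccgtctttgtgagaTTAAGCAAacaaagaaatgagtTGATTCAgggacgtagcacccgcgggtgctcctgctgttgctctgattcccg
Gpr35, upstream start: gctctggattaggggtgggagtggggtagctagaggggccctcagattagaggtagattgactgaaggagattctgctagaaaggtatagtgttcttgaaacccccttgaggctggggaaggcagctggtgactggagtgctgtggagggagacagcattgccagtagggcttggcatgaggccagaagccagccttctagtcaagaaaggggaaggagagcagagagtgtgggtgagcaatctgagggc
Gpr35, downstream start: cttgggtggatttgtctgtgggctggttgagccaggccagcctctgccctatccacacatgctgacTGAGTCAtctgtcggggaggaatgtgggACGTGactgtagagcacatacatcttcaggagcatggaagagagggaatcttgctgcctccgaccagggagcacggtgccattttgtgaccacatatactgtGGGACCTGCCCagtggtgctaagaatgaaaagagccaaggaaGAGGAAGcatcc

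The Ffar2 window held an AP-1 match 52 to 46 bases before the start, a C/EBP match 74 to 67 bases before it, an NF-kB match at its far end, and a CACGTG that reads ACGTG on both strands. The downstream window of Gpr35 held an AP-1 match 184 to 178 bases before the start, a PU.1 match, ACGTG, and 2 overlapping NF-kB matches. The Gpr84 window and the upstream window of Gpr35 held none of the 6 motifs, which says only that these letters are not in these windows. Of 32851 windows of this length over all genes, 6.75% held the AP-1 letters, 7.02% the STAT letters, 9.56% those of C/EBP, 10.6% those of PU.1, 16.6% ACGTG and 45.8% the NF-kB letters. A match is a match of letters and not a measured binding site.

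On every array Gpr84, Gpr35, Ffar2 and Hcar2 were detected, with a detection p-value of at most 0.00855 on any of their 7 probes. Levels below are log2 signals after background correction and quantile normalization, and they are compared between conditions within a probe, never between genes. Sucnr1, the succinate receptor, was not detected on any of the 10 arrays (detection p-value 0.576 to 0.932). Its signal was 88.3 to 117.7 on the scanner scale, where the median of all probes was 99.2 to 124.4, and its normalized level was 4.27 to 4.40. No change is given for Sucnr1, since every array gave only an upper bound.

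**Figure D1:**
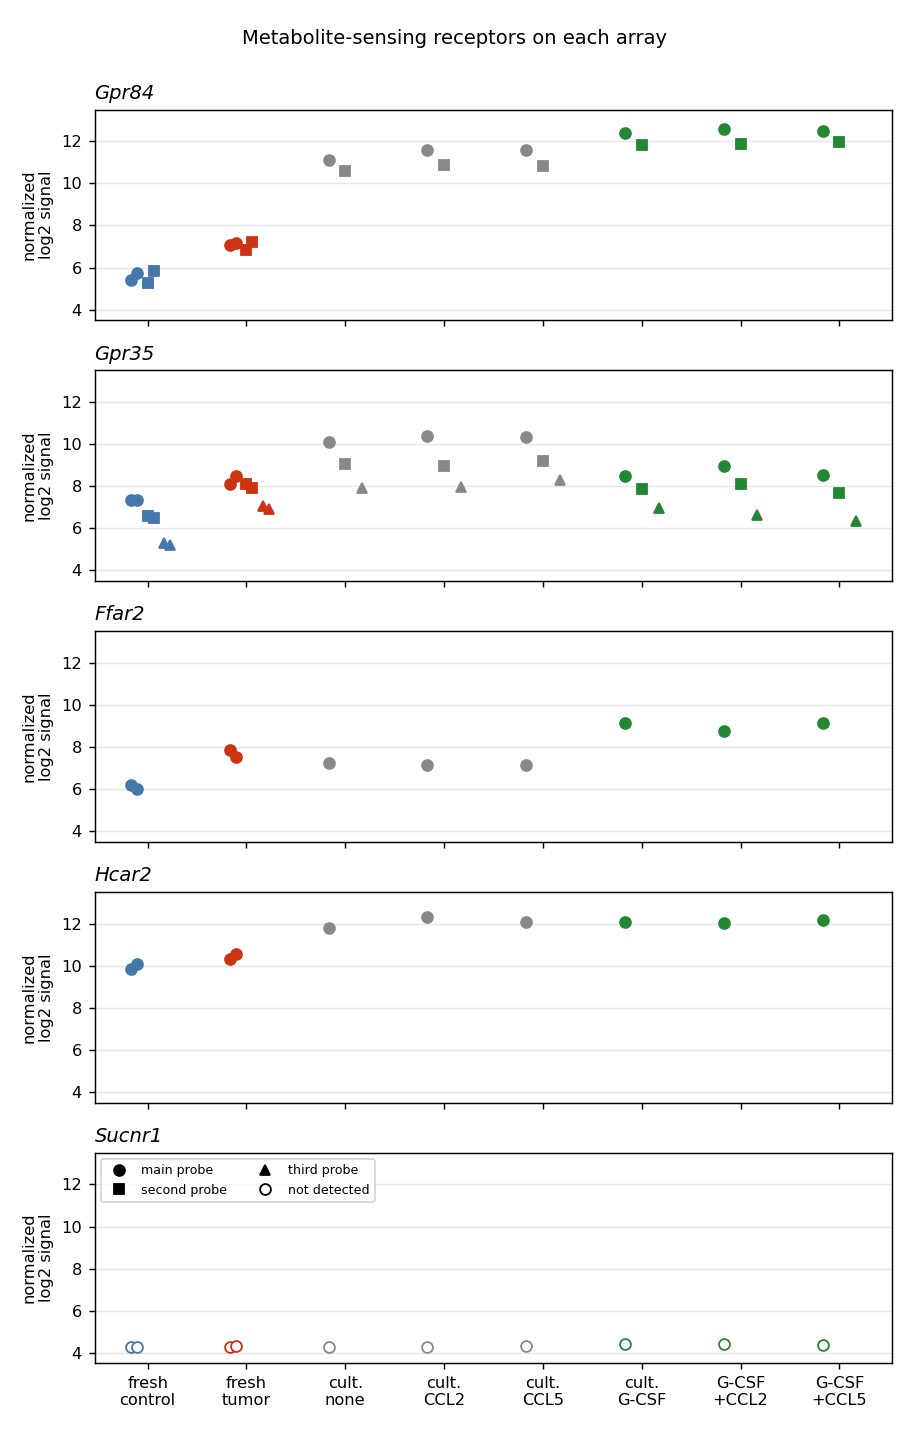
Normalized log2 signal (vertical axis) of each receptor on the 10 arrays, by condition; circles, squares and triangles are the probes of a gene, filled where detected and open where not, and points of a fresh condition are its 2 arrays. Gpr84 runs from 5.43 to 12.58 on its main probe, while Sucnr1 stays between 4.27 and 4.40 with every point open.

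The first comparison set circulating neutrophils of tumor-bearing mice against those of control mice. Gpr84, Ffar2 and Gpr35 were higher in tumor-bearing mice, 2.89-fold, 3.05-fold and 1.92-fold, and Hcar2 was 1.39-fold higher without passing the test. In limma 3 of the 4 tested receptors were called, all of them rising, where 26.0% of the 8019 tested genes were called (10.8% rose and 15.2% fell). The median change of the 4 receptors was 1.23 on the log2 scale, against -0.04 for all tested genes. The share of all tested genes whose groups did not overlap was not counted, so statements on overlap here and below are descriptions.

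Ffar2, the short-chain fatty acid receptor, had levels of 6.20 and 6.0 on the control arrays and 7.88 and 7.54 on the tumor-bearing arrays. The pairs did not overlap, and the log2 change was 1.61 ± 0.20 (SE, n = 2 and 2 arrays, limma adjusted p = 8.73e-05). Gpr84, the medium-chain fatty acid receptor, had levels of 5.43 and 5.73 in control mice and 7.06 and 7.16 in tumor-bearing mice. Its pairs did not overlap either, with a log2 change of 1.53 ± 0.19 (SE, n = 2 and 2, limma adjusted p = 1.10e-04) and a change of 1.47 on its second probe. Without background correction the changes of these dim genes were smaller, 0.92 for Ffar2 and 0.73 for Gpr84, and still passed the test.

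Gpr35, which responds to tryptophan metabolites, had levels of 7.35 and 7.36 in control mice and 8.10 and 8.50 in tumor-bearing mice on its main probe. Both tumor-bearing arrays were above both control arrays, by 0.94 ± 0.20 in the mean (log2, SE, n = 2 and 2, limma adjusted p = 0.00435). The second probe of Gpr35 rose from 6.58 and 6.50 to 8.12 and 7.92, and the third from 5.29 and 5.20 to 7.05 and 6.94. Their changes of 1.48 ± 0.19 and 1.75 ± 0.19 were larger than that of the main probe. Without the second tumor-bearing array the change of the main probe was 0.74 and no longer passed (adjusted p = 0.060).

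Hcar2, the receptor of nicotinic acid and beta-hydroxybutyrate, had levels of 9.85 and 10.06 in control mice and 10.31 and 10.57 in tumor-bearing mice. The pairs did not overlap, yet the log2 change of 0.48 ± 0.19 (SE, n = 2 and 2) did not pass limma (adjusted p = 0.0891). It passed in 4 of the 13 alternatives. These were without background correction (0.45, adjusted p = 0.010), on the deposited processed values (0.45), with a larger offset (0.47) and under median scaling (0.69). Deposited and uncorrected values differed by at most 0.00531, so these settings are not separate. Markers of other blood cells fell here in 21 of 28 tested cases and rose in 0 (median -1.30), and 5 of 12 neutrophil markers rose and 0 fell (median 0.24). The part of these shifts in the receptor values was not tested.

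The next comparison set untreated cultured neutrophils against fresh control neutrophils. All 4 detected receptors were higher after culture, Gpr84 by 49.5-fold, Gpr35 by 6.74-fold, Hcar2 by 3.94-fold and Ffar2 by 2.26-fold. In limma 4 of the 4 tested receptors rose, where 16.4% of the 9744 tested genes rose, and their median change was 2.37 against -0.02 for all tested genes. Culture, the day of the experiment and the set of arrays cannot be told apart, because no fresh array belongs to the culture experiment as far as the labels say. This comparison shares its 2 control arrays with the comparison of tumor-bearing mice.

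Gpr84 stood at 11.09 in untreated culture, against 5.43 and 5.73 in fresh control cells. In scanner signal this was 1954 against 129 and 135, so Gpr84 went from just above background to a bright signal. The fit over all arrays gave a log2 change of 5.63 ± 0.21 (SE, n = 10 arrays, limma adjusted p = 9.55e-10), and the second probe gave 5.08. The value was 4.16 without background correction.

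Gpr35 stood at 10.12 in untreated culture, against 7.35 and 7.36 in fresh control cells, and the fitted log2 change was 2.75 ± 0.21 (SE, limma adjusted p = 6.09e-07). The other probes gave 2.53 and 2.91. Hcar2 stood at 11.82 against 9.85 and 10.06, with a fitted change of 1.98 ± 0.22 (SE, limma adjusted p = 1.41e-05). Ffar2 changed least of the 4, from 6.20 and 6.0 to 7.25, with a fitted change of 1.17 ± 0.21 (SE, limma adjusted p = 7.90e-04), or 0.65 without background correction. The fitted changes use all 6 cultured arrays under additive effects of the added factors. Culture also moved genes that mark other blood cells, of which 12 of 34 tested fell and 6 rose (median -0.36). The T cell markers went against that median, with 4 of 4 rising (median 0.93), and of 12 neutrophil markers 4 rose and 5 fell (median -0.20). The part of these shifts in the receptor values was not tested.

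**Figure D2:**
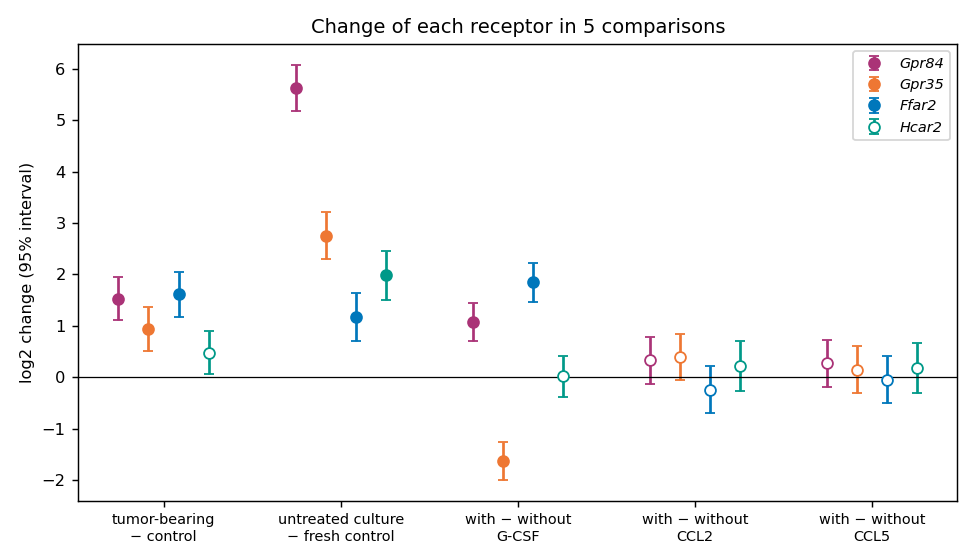
Log2 change (vertical axis) of each detected receptor in 5 comparisons, with its 95% interval from the limma fit; filled points passed an adjusted p of 0.05 and open points did not. Gpr84 reaches 5.63 in culture, Gpr35 is above 0 in tumor-bearing mice (0.94) and in culture (2.75) but at -1.63 with G-CSF, and the chemokine intervals all include 0.

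The third comparison asked what G-CSF changed, over 3 cultured arrays with it and 3 without. Each of these arrays is a different condition, so the 3 on a side are not replicates. The fit was additive with 2 residual degrees of freedom. Its SE and p-values therefore rest on departures from additive effects and not on a spread between replicates. Ffar2 was 3.59-fold higher and Gpr84 2.11-fold higher with G-CSF, Gpr35 was 3.09-fold lower, and Hcar2 stood at 1.01-fold. In limma 3 of the 4 tested receptors were called, of which 2 rose and 1 fell, where 28.9% of the 8610 tested genes were called (16.6% rose and 12.3% fell). The median change of the 4 receptors was 0.55, against 0.06 for all tested genes. With median scaling instead, the median of all genes was 0.41 and 88.9% of called genes were higher, against 57.3%, and the 3 receptor calls kept their directions.

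Ffar2 had levels of 7.25, 7.15 and 7.14 without G-CSF (no chemokine, CCL2 and CCL5) and of 9.15, 8.76 and 9.16 with it. Each array with G-CSF was above each array without it, and the matched differences were 1.89, 1.61 and 2.02. The fitted log2 change was 1.84 ± 0.16 (SE, n = 3 and 3 arrays, limma adjusted p = 2.29e-04).

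Gpr84 had levels of 11.09, 11.57 and 11.56 without G-CSF and of 12.40, 12.58 and 12.48 with it. The groups did not overlap, the matched differences were 1.31, 1.00 and 0.91, and those of the second probe were 1.24, 1.02 and 1.15. The fitted change of the main probe was 1.07 ± 0.16 (SE, n = 3 and 3, limma adjusted p = 0.00228).

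Gpr35 went the other way on all 3 of its probes. Its main probe had levels of 10.12, 10.40 and 10.35 without G-CSF and of 8.47, 8.98 and 8.54 with it, so that every array with G-CSF was below every array without it. The fitted change was -1.63 ± 0.16 (SE, n = 3 and 3, limma adjusted p = 3.57e-04). The second probe changed by -1.19 ± 0.19 and the third by -1.42 ± 0.21 (log2, SE). Matched differences of the third probe were the most spread, at -0.96, -1.34 and -1.98.

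Hcar2 had levels of 11.82, 12.33 and 12.07 without G-CSF and of 12.08, 12.01 and 12.19 with it. The groups overlapped, and the matched differences of 0.26, -0.32 and 0.12 did not share a sign. The fitted change was 0.02 (95% interval -0.38 to 0.42, limma adjusted p = 0.948). With G-CSF the markers of other blood cells fell in 18 of 28 tested cases and rose in 0 (median -0.94). Neutrophil markers rose in 4 and fell in 2 of 12 cases (median 0.08). The part of these shifts in the receptor values was not tested.

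**Figure D3:**
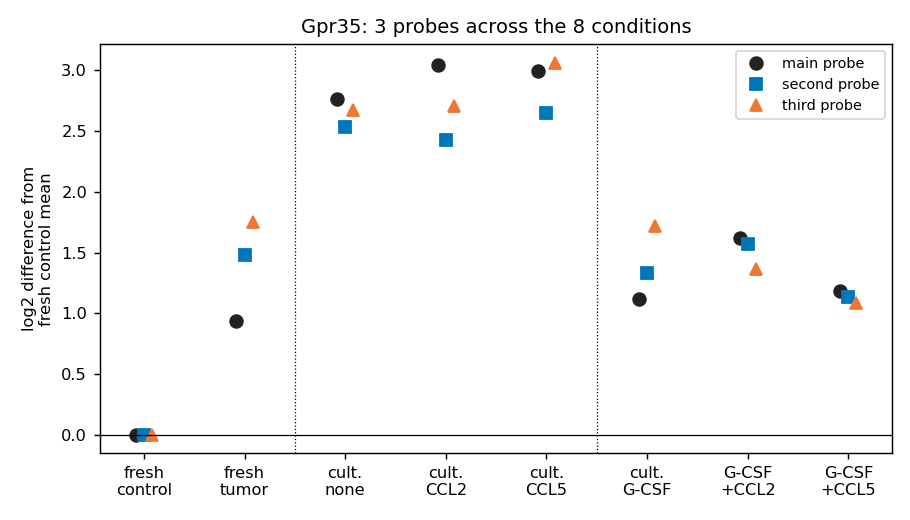
Log2 difference of the 3 Gpr35 probes from their own fresh control mean (vertical axis) in the 8 conditions, with dotted lines between fresh cells, culture without G-CSF and culture with it; fresh points are means of 2 arrays and cultured points are single arrays. All 3 probes are higher in tumor-bearing mice (0.94, 1.48 and 1.75) and are lower with G-CSF than without it (-1.63, -1.19 and -1.42).

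Tumor-bearing mice and G-CSF culture share no arrays, so the difference between both effects was tested directly over the 10 arrays. For Gpr35 the tumor effect exceeded the G-CSF effect by 2.57 ± 0.25 (log2, SE, n = 10 arrays, limma adjusted p = 4.24e-05), and by 2.67 and 3.17 on its other probes. The effects differed by 0.45 for Gpr84 (95% interval -0.08 to 0.99), by -0.23 for Ffar2 (-0.79 to 0.32) and by 0.46 for Hcar2 (-0.11 to 1.02), and none of these 3 passed (adjusted p from 0.222 to 0.575). One of the 4 receptors was thus called here, where 7.88% of 9744 tested genes were called in that direction and 21.1% in either. The count of called receptors was therefore close to the share of all genes called in either direction. The Ffar2 difference was called in 3 of its 5 alternatives and that of Gpr84 changed sign in 2 of 5. Uncorrected and deposited values are counted in both, although they are nearly the same.

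The chemokines CCL2 and CCL5 were compared with no chemokine over the same 6 cultured arrays, in the same additive fit without replicates. Both effects share the 2 arrays without a chemokine. In limma 0 of the 4 tested receptors passed for either chemokine, as did 0 of all 8610 tested genes (background 0% each). At an unadjusted p below 0.05 there were 0 of the 4 receptors for each chemokine, and 437 genes for CCL2 and 351 for CCL5. On the main probes the CCL2 changes ran from -0.24 ± 0.20 for Ffar2 to 0.39 ± 0.20 for Gpr35 (log2, SE). The other Gpr35 probes gave 0.07 ± 0.23 and -0.16 ± 0.26, so the probes did not share a sign. The CCL5 changes ran from -0.05 ± 0.20 for Ffar2 to 0.27 ± 0.20 for Gpr84. The main-probe intervals reached 0.85 for Gpr35 with CCL2 and 0.73 for Gpr84 with CCL5, so changes of up to these sizes lay within the unadjusted intervals.

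Whether the chemokines acted differently with G-CSF was asked with 8 group means, a fit that takes its spread from the replicated fresh conditions. None of the 4 receptors passed in limma (0 of 9744 genes for either chemokine, background 0% each), and 0 of the 4 had an unadjusted p below 0.05. Of all 9744 genes, 884 were below it for CCL2 and 707 for CCL5. These counts are for the main probes, where the largest receptor value was -0.58 for Hcar2 with CCL2 (95% interval -1.41 to 0.26). The third Gpr35 probe gave a larger value with CCL5, -1.02 ± 0.36 (log2, SE, limma adjusted p over all probes = 0.606). The main and second Gpr35 probes gave -0.16 and -0.31 there. The lone cultured arrays were assumed to vary like the fresh ones.

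Ranking the 8 conditions within each gene, on its main probe, set the receptors apart in the place of the cultured arrays. Steps between cultured conditions compare single arrays, with a spread taken from the fresh pairs, and the 95% intervals of all steps are unadjusted, so the ranks are descriptions. Gpr84 ran from fresh control (5.58) through fresh tumor-bearing (7.11) to untreated culture (11.09), culture with either chemokine (11.56 and 11.57) and the 3 arrays with G-CSF (12.40 to 12.58). Neighbours differed beyond the 95% interval of the step at the first 2 steps and between culture with CCL2 and culture with G-CSF. Hcar2 had the same beginning (9.96, 10.44 and 11.82), and no step from one of its 6 cultured conditions to the next went beyond the interval.

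Gpr35 was lowest in fresh control cells (7.36), and fresh tumor-bearing cells (8.30) did not differ beyond the interval from the neighbouring culture with G-CSF (8.47). The 3 arrays with G-CSF (8.47 to 8.98) lay 1.14 or more below the 3 without it (10.12 to 10.40), a step beyond the interval. Ffar2 was lowest in fresh control cells (6.10), followed by culture without G-CSF (7.14 to 7.25) and fresh tumor-bearing cells (7.71), which did not differ beyond the interval from untreated culture. Culture with G-CSF was highest (8.76 to 9.16).

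Across the 10 arrays Gpr84 and Hcar2 ran most alike (Pearson r = 0.98) and Gpr35 and Ffar2 least (r = 0.13). The other 4 pairs had r of 0.61 to 0.78. The points share the arrays and mostly follow the gap between fresh and cultured cells, so these values are descriptions. Probes of the same gene correlated at 1.00 for Gpr84 and at 0.92 to 0.99 for Gpr35.

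Of 9743 other detected genes, those closest to Gpr84 over the 10 arrays were Ppp1r11, the mitochondrial superoxide dismutase gene Sod2 and the autophagy receptor gene Sqstm1 (Pearson r = 0.99 each). Closest to Hcar2 were Rnf4, the heme synthesis gene Alas1 and Ccrl2 (r = 0.99 each). Vsig10 (r = 0.99), Rcan1 and Smox (0.98 each) ran closest to Gpr35. Casp6, an executioner caspase gene (0.98), Saa3, an acute-phase gene (0.98), and Adpgk (0.97) ran closest to Ffar2.

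The genes next to Ffar2 and Hcar2 in the genome encode related receptors. Ffar3, the other short-chain fatty acid receptor, was detected by its brighter probe on 2 of 10 arrays, 1 fresh control array (5.05) and the culture with CCL2 (5.59). Its other probe was detected on 3 arrays, the second control array, the second tumor-bearing array and the culture with CCL2, and stayed between 4.34 and 5.13. Ffar1, a long-chain fatty acid receptor, and Hcar1, the lactate receptor, were not detected on any array.

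A list of 36 other receptors for metabolites, lipid mediators and nucleotides had 33 members with a probe and 17 tested in tumor-bearing against control mice. Of these 2 rose and 4 fell, where 10.8% of all tested genes rose and 15.2% fell (median -0.11, against -0.04 for all tested genes), so the share that rose was close to that of all genes. The ADP receptor P2ry1 rose by 1.34 ± 0.21 (log2, SE, limma adjusted p = 5.08e-04) and the UDP receptor P2ry6 by 1.03 ± 0.19. The oxysterol receptor Gpr183 stood at -2.11 ± 0.20 and the UDP-glucose receptor P2ry14 at -1.51 ± 0.19. In the same comparison 4 of 4 B cell markers (median -2.53) and 2 of 3 dendritic cell markers (median -1.80) fell, and their part in these values was not tested.

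With G-CSF 0 of 16 tested receptors of that list rose and 4 fell, where 16.6% of all tested genes rose and 12.3% fell (median 0.02, against 0.06), led by P2ry14 at -1.22 ± 0.18 and Gpr183 at -1.09 ± 0.20. All 4 of 4 B cell markers fell there too (median -1.42), and their part was not tested. In culture against fresh control 2 of 17 rose and 6 fell, where 16.4% of all tested genes rose and 17.8% fell (median -0.10, against -0.02). Gpr132, a lipid-sensing receptor, rose by 1.76 ± 0.26 and the sphingosine phosphate receptor S1pr2 by 1.24 ± 0.22, while P2ry1 stood at -2.16 ± 0.24 and the proton-sensing receptor Gpr65 at -1.73 ± 0.22. P2ry1 lay near background on the cultured arrays (4.90 to 5.32). For CCL2 and CCL5 0 of 16 passed.

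**Figure D4:**
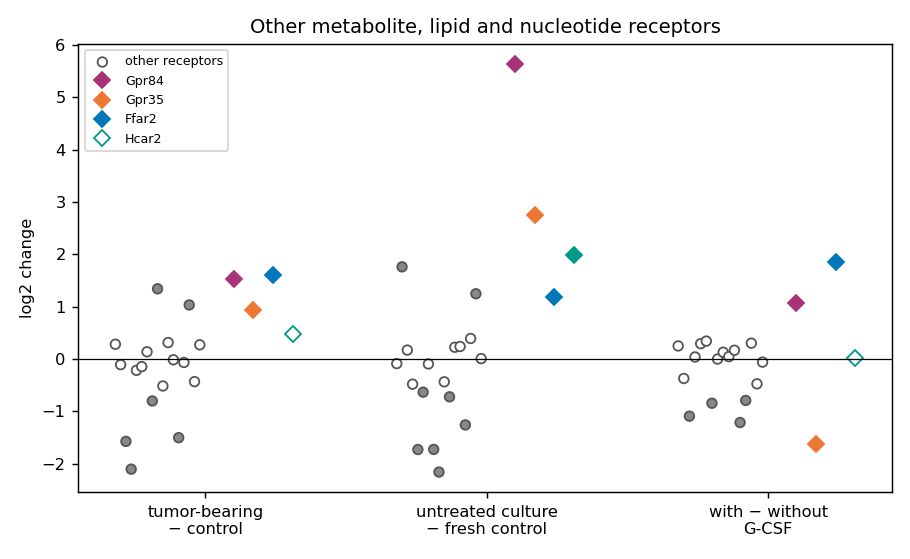
Log2 change (vertical axis) of the other receptors (circles, 17, 17 and 16 genes from left to right) and of the 4 detected metabolite-sensing receptors (diamonds) in 3 comparisons; filled points passed an adjusted p of 0.05. Gpr84 (5.63), Gpr35 (2.75) and Hcar2 (1.98) lie above every circle in culture, where the highest is Gpr132 (1.76), and Ffar2 (1.84) and Gpr84 (1.07) do so with G-CSF.

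Of 42 genes of G protein signalling downstream of such receptors, 31 were tested in tumor-bearing against control mice, where 2 rose and 6 fell, against 10.8% and 15.2% of all tested genes (median -0.27, against -0.04). Pik3r5 and Rgs3 rose, Pik3r5, an adaptor of the G protein-activated phosphoinositide kinase, by 0.76 ± 0.19 (log2, SE). Pik3r5 was not detected on either control array (4.66 and 4.76). It passed the detection filter only through the tumor-bearing arrays (5.57 and 5.36), near background, so its call is no support for a rise. Arrb1, which encodes a beta-arrestin, a protein that desensitizes receptors, stood at -1.46 ± 0.19, and Rgs1, which speeds the shut-off of G proteins, at -1.03 ± 0.21. The other beta-arrestin gene of the list, Arrb2, had levels of 11.58 and 11.48 in control mice and 11.66 and 11.58 in tumor-bearing mice. With G-CSF 3 of 33 rose and 5 fell, against 16.6% and 12.3% of all tested genes (median 0.03, against 0.06). The catalytic subunit gene Pik3cg rose by 1.19 ± 0.16 and Prkaca by 0.93 ± 0.25, and Rgs2 stood at -2.08 ± 0.16 and Arrb1 at -1.56 ± 0.16. In culture 6 of 34 rose and 13 fell, where 16.4% of all tested genes rose and 17.8% fell (median -0.20, against -0.02), so the share that rose was close to that of all genes. The called genes with the smallest p in each direction were Gna13 at 1.87 ± 0.21, Pde4d at 1.73 ± 0.25, Pik3r6 at -1.92 ± 0.20 and Gng2 at -1.97 ± 0.22. Pde4d was not detected on the first control array (4.47) and lay near background on the second (5.06).

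A list of 38 genes covers enzymes and transporters of succinate, itaconate, lactate, ketone bodies, fatty acids and kynurenine. Itaconate and lactate are not among the ligands named above, and some of the enzymes use up a metabolite. In tumor-bearing against control mice 20 of the 38 were tested. Of these 3 rose and 4 fell, against 10.8% and 15.2% of all tested genes (median 0.01, against -0.04). Acod1, which makes itaconate, had levels of 7.72 and 7.62 in control mice and 10.55 and 10.37 in tumor-bearing mice, and rose by 2.79 ± 0.19 (log2, SE, limma adjusted p = 9.78e-07). The transporter gene Slc16a6 rose by 0.62 ± 0.20. The acetate-activating enzyme gene Acss1 stood at -2.01 ± 0.18 and the thioesterase gene Acot7 at -1.18 ± 0.18.

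With G-CSF 5 of 19 of these genes rose and 4 fell, against 16.6% and 12.3% of all tested genes (median 0.13, against 0.06). The lactate dehydrogenase gene Ldha rose by 1.5 ± 0.16 and Suclg1, which encodes a subunit of succinyl-CoA ligase, by 1.22 ± 0.17. The acetate-activating genes Acss2 and Acss1 stood at -1.23 ± 0.15 and -1.27 ± 0.17. In culture 4 of 21 rose, a share close to the 16.4% of all tested genes, and 9 fell, where 17.8% of all genes did (median -0.49, against -0.02). The called genes with the smallest p in each direction were Acod1 at 5.29 ± 0.20, Slc16a6 at 1.55 ± 0.21, Sdhd, a subunit of the enzyme that oxidizes succinate, at -1.78 ± 0.22 and Acot7 at -1.34 ± 0.19. Sdhd was not detected in untreated culture (4.67) or in culture with CCL2 (4.70), so the size of its fall is uncertain.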

How the data were processed

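Neutrophil RNA was extracted with Trizol, labelled with Cy3 and read on 10 Illumina mouse bead arrays, per the labels. Per the file headers, the deposited table gives for each probe the bead signal intensity, a bead number, a bead standard error and a detection p-value. The bead number and the bead standard error were not used in tests. The deposited second table holds processed values on a log2 scale, which differed from quantile-normalized log2 signals by at most 0.00531. Partek is named in the submitters' processing notes, and its role is not given in the sources used here.

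Signals were corrected by normexp (nec, offset 16), which read background from the detection p-values, then log2-transformed and quantile-normalized in R 4.3.3 with limma 3.58.1. Correction widens changes of dim probes, and quantile normalization removes differences in array brightness. Of 45281 probes 34885 name 1 gene, 18 several and 10378 none. Probes detected (p below 0.05) on at least 2 arrays of a fit were kept, and each gene was tested on its probe with the highest mean. Other probes were read from the same fit run over all probes.

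Tumor-bearing mice were compared with control mice over 4 arrays, G-CSF and chemokines in an additive fit of 6 cultured arrays, and culture and the difference of tumor and G-CSF effects over 10 arrays. All limma tests were two-sided with Benjamini-Hochberg adjustment over all genes. Only the fits for tumor-bearing mice, G-CSF and culture were tested on simulated data. Those data followed the fitted model, so they do not check additivity. The fresh arrays were not paired by their numbers (deviations correlated at 0.06 across detected probes). The receptors and lists were chosen with earlier results of these data known. Named list genes are, per comparison, up to 2 called in each direction with the smallest p, and likeness is given for 3 genes per receptor. Alternatives covered background, offset, scaling, filter, probe rule, deposited values, spread, replicate block and single arrays.
Promoter letters were searched in the 250 bases before each start, and the 50 bases after it, which the plan had included, were left out.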

Additional observations from a re-analysis of the deposited data

Results flagged for a closer look

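The effect of a tumor and the effect of G-CSF on Gpr35 differed in a direct test by 2.57 on the log2 scale (SE 0.25, n = 10 arrays, limma adjusted p = 4.24e-05). Gpr35 rose by 0.94 in tumor-bearing mice, where both arrays were above both control arrays, and stood at -1.63 with G-CSF, lower in 3 of 3 matched pairs. The difference was between 2.11 and 2.57 in the 5 alternatives run for it and passed in each (adjusted p at most 4.60e-04). On the same arrays markers of other blood cells fell in both comparisons (21 of 28 and 18 of 28), and their part in this difference was not tested. The tumor effect was measured in fresh cells and the G-CSF effect in cultured cells, which cannot be told apart from the agents themselves.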

How the results depend on the processing

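The count of called receptors stayed within 1.5 times its value in the alternatives run for tumor-bearing mice (2 to 4, main value 3), G-CSF (3), culture (4), the chemokines (0) and both interactions (0). Leaving out single arrays gave 2 to 3 for tumor-bearing mice, 3 for G-CSF, 4 for culture and 0 for each chemokine. For the difference of tumor and G-CSF effects the count was 1, and 2 without background correction, on the deposited values and under median scaling, since Ffar2 passed there (-0.46, -0.46 and -0.71). The Gpr84 difference of 0.45 became -0.32 without background correction and on the deposited values, with no call in either. Uncorrected and deposited values are nearly the same and are not separate settings. Leaving out single arrays turned the sign of 3 further uncalled values, the Hcar2 change with G-CSF (-0.10 to 0.19), the Hcar2 change with CCL2 (-0.033 to 0.48, the lowest without CCL2 alone) and the Ffar2 change with CCL5 (-0.18 to 0.087, the highest without CCL5 alone). The Hcar2 value with G-CSF was -0.10 without untreated culture or G-CSF alone and -0.03 without CCL5 alone or G-CSF with CCL5. In the additive fit, leaving out either array of a matched pair drops that pair from the G-CSF value, so these settings are not all separate. The matched Hcar2 differences with G-CSF were 0.26 without chemokine, -0.32 with CCL2 and 0.12 with CCL5. The cause of their spread was not tested.

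With the replicate block the 3 receptor calls in tumor-bearing mice held (Gpr35 adjusted p = 0.00147) and Hcar2 did not pass (adjusted p = 0.0723). The count of all called genes was 2316 with the block against 2086. It was 1323 and 1087 without the first and second tumor-bearing array, and for G-CSF 4512 under median scaling, 1489 without untreated culture and 1443 without G-CSF alone, against 2485. For CCL2 it was 1 without the CCL2 array and 0 otherwise. Under median scaling 34.9% of called genes were higher in culture, against 47.9%, and the median of all genes moved from -0.02 to -0.13. The difference of tumor and G-CSF effects went under it from 2059 to 3172 called genes, from 37.3% to 15.4% higher, and from a median of -0.09 to -0.33. Single cultured arrays and pairs of fresh ones limit precision, and Gpr84 in fresh control cells (signal 129 and 135) lay near background.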

Other observations

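In the test of the difference between the tumor effect and the G-CSF effect, 1 of 34 tested genes of the signalling list was called with the tumor effect higher and 7 with it lower. In the list of metabolite enzymes and transporters 3 of 21 were called higher and 5 lower. Of all 9744 tested genes 7.88% were called higher and 13.2% lower (21.1% in all), so the total of the signalling list was close to that of all genes. Rgs2, a regulator that speeds the shut-off of G proteins, differed by 2.38 ± 0.25 (log2, SE, limma adjusted p = 6.18e-05), with changes of 0.30 in tumor-bearing mice and -2.08 with G-CSF. Pik3cg differed by -1.54 ± 0.23, with changes of -0.35 and 1.19. Acod1 differed by 3.04 ± 0.24, with changes of 2.79 and -0.26, and its cultured arrays were all between 12.70 and 13.11.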
